A study of Mus musculus with 6 samples.

Results

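The 39 mouse genes described here belong to the unfolded protein response of the endoplasmic reticulum (ER) and to the ATF4 program of the integrated stress response. They were taken as a named list, and array probes were assigned to them through the RefSeq accession that the array gives for each probe. Of the 39 genes, 38 had a probe that could be tested, among 15838 genes tested and 20648 genes with a named probe in all. *Pycr1*, a proline synthesis enzyme, matched no probe by accession and was not analysed here. The ER arm held 18 genes and the ATF4 arm 21, of which 20 were tested.

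RNA came from spheres, which are free-floating clusters of cells, made from mammary tumors of mice. One group of 3 samples was labelled FRS2beta hetero and the other group of 3 FRS2beta knock-out, and both carry at least one altered allele, so no wild-type sample enters the comparison. FRS2beta is an adaptor protein, encoded by *Frs3*, that docks on receptor tyrosine kinases. Both groups were cultured alike in DMEM/F12 supplemented with B27, EGF (20 ng/mL), bFGF (20 ng/mL) and heparin (2 mg/mL). Mouse strain, age, tumor driver and time in culture are not given in the sources used here. Nor do these sources say whether the 3 replicates of a genotype came from separate mice, tumors or cultures, so a p-value here weighs genotype against between-array spread that may be purely technical.

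Secretory and membrane proteins fold in the ER, where chaperones bind them, foldases join their disulfide bonds, and proteins that fail to fold are passed back to the cytosol for degradation (ERAD). When unfolded proteins build up, the sensors IRE1alpha, ATF6 and PERK start the unfolded protein response: IRE1alpha splices the mRNA of XBP1, ATF6 is cut to release a transcription factor, and PERK phosphorylates the translation factor eIF2alpha. Phosphorylated eIF2alpha, which other kinases also make when amino acids run short, lowers general translation while raising that of ATF4, a transcription factor for amino acid synthesis, transport and tRNA charging. Much of this control is translational or post-translational, and an expression array reads only mRNA abundance.

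The 2 arms are known to be driven through different promoter elements, so the promoter sequences of the members were read first. The RefSeq promoter table (assembly GRCm38.p6) gives 300 bases per promoter, 250 before and 50 after the start, and holds 35 of the 39 genes. The ER stress response element (ERSE) was searched on both strands as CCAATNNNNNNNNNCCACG. It was present in 39 of 32851 promoters in the table (0.119%), and 7 of the 15 ER genes in the table held it, against 0 of the 20 ATF4 genes. The C/EBP-ATF response element (CARE), at which ATF4 binds with a C/EBP partner, was searched as TGATGNAA on both strands. It was present in 3.97% of all promoters and in 7 of the 20 ATF4 genes. These matches describe letters in a window and show no binding.

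The windows of 4 of the 7 ERSE holders are shown, on the strand of the gene and with the element in capitals, because they include the main ER chaperones and the one holder that was higher in knockout spheres. In *Calr* the element lies on the opposite strand, so the capitals read as its reverse complement.
Hspa5 (chr2:34772005-34772063, plus strand): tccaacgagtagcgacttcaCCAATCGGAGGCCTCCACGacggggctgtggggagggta
Hsp90b1 (chr10:86705618-86705676, minus strand): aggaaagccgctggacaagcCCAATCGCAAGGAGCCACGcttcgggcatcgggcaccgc
Calr (chr8:84847055-84847113, minus strand): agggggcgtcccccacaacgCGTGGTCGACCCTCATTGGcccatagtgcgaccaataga
Syvn1 (chr19:6046512-6046570, plus strand): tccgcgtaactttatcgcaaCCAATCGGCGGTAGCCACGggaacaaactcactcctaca
The other ERSE holders were *Pdia6*, *Dnajc3* and *Creld2*, and *Hsp90b1* held a second match on the opposite strand.

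Windows of 5 promoters with the CARE are shown in the same way because they span the range of change seen below: *Chac1* and *Asns* were higher in knockout spheres, *Vldlr* was lower, and *Atf3* and *Herpud1* did not pass the test. All but *Asns* carry it on the opposite strand.
Asns (chr6:7693209-7693248, minus strand): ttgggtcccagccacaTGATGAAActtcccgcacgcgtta
Chac1 (chr2:119351033-119351072, plus strand): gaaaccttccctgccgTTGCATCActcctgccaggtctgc
Vldlr (chr19:27216804-27216843, plus strand): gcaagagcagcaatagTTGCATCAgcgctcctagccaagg
Atf3 (chr1:191183420-191183459, minus strand): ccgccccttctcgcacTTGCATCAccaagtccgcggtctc
Herpud1 (chr8:94386301-94386340, plus strand): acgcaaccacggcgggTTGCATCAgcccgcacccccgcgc
*Nupr1*, *Pycr1* and *Trib3* also matched, *Trib3* at bases just after its start. *Herpud1* was the single ER gene with a CARE, and it also held the second form of the ERSE (ERSE-II), found in 0.0365% of promoters. Neither the XBP1 and ATF6 element TGACGTGG (0.676% of promoters) nor the cAMP response element TGACGTCA (1.79%) was found in a member's window.

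**Figure D1:**
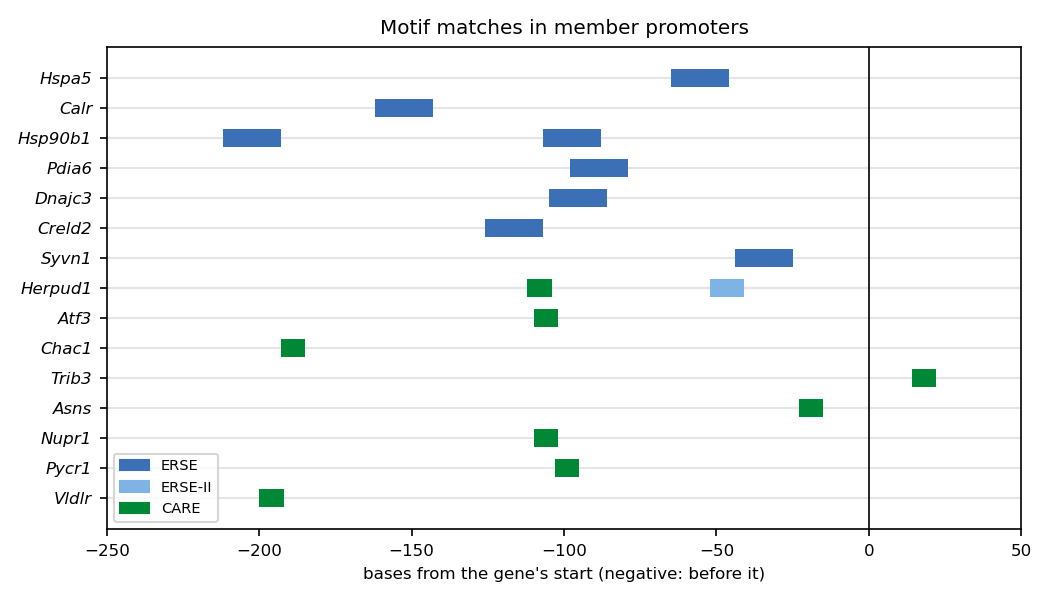
Positions of motif matches in the promoters of 15 member genes; the horizontal axis is the distance in bases from the gene's start, negative before it, and each bar is one match. All ERSE matches lie before the start, and the CARE matches run from about 200 bases before the start to just after it in *Trib3*.

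Signals are given as the log2 of the processed intensity minus each array's 75th percentile, and fold changes are knockout over hetero. That percentile lay between 404 and 416 for hetero and between 465 and 487 for knockout spheres. Across genes, the correlation between arrays was 0.995 to 0.998 within a genotype and 0.966 to 0.971 between genotypes. The single *Frs3* probe read -7.30, -4.65 and -6.01 in hetero and -7.88, -7.95 and -7.36 in knockout spheres. It was well above background on 1 hetero and 0 knockout arrays, so it checks the labels only weakly. Genotype was accompanied by a large difference in cell type markers. All 10 luminal epithelial markers were higher in knockout spheres (log2 fold changes from 3.19 to 4.08, where *Elf3* was not well above background in any hetero sample), and their mean signal ran from 0.24 to 0.29 (log2) in hetero and from 3.69 to 3.72 in knockout spheres. *Krt18*, a luminal keratin, had a log2 fold change of 3.44. All 9 macrophage markers tested were lower (median -1.65), with a mean signal of 1.14 to 1.17 in hetero and -0.25 to -0.24 in knockout spheres, and *Cd68* was not kept. Of 10 fibroblast markers, 7 were lower and 2 higher (mean signal 7.81 to 7.95 against 7.43 to 7.48). Of 7 endothelial markers, 4 were lower and 1 higher (mean signal 1.73 to 1.78 against 1.32 to 1.41). Of 8 milk secretion genes, 5 were tested and 3 were higher, among them the casein gene *Csn1s1* at a log2 fold change of 6.32 (mean signal 0.22 to 0.32 against 1.53 to 1.54). Of the 5 B and plasma cell markers tested, *Ms4a1* was higher but not well above background in any hetero sample, *Cd79b* was lower (-0.15), and *Cd79a*, *Jchain* and *Mzb1* did not pass, while *Tnfrsf17* was not kept (mean signal of those tested -0.84 to -0.82 against -0.95 to -0.89). Of 7 T cell markers, 2 were tested and *Cd3e* was lower (-0.56). Of all genes tested, 27.8% were higher and 32.6% lower, at an adjusted p under 0.05. Under the spike-in scaling described below these shares were 72.5% and 7.95%. All 10 luminal markers then stayed higher, and 7 macrophage markers stayed lower. Fibroblast markers were then 5 lower and 3 higher, and endothelial markers 0 lower and 4 higher. *Cd79b* became higher (0.27), and *Cd3e* no longer passed (-0.14). The part of these markers in the results on the stress genes was not tested. In a bulk sample, fewer cells of a type and less RNA per cell cannot be told apart.

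Changes of the stress genes were small, and they were about as frequent as among all genes. At an adjusted p under 0.05, 22 of 38 members differed between the genotypes (57.9%), where 60.4% of all genes tested did. Of these, 10 were higher in knockout spheres (26.3%, against 27.8% of all genes) and 12 were lower (31.6%, against 32.6%). The 3 hetero and 3 knockout values did not overlap for 26 members (68.4%, against 68.9%). No member changed 2-fold or more, whereas 6.59% of all genes were at least 2-fold higher and 3.52% at least 2-fold lower. All 38 were well above background on all 6 arrays.

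The direction of these small changes depends on how arrays are scaled. When arrays were scaled to 7 spike-in probes, every log2 fold change rose by 0.419 and the median of all genes moved from -0.03 to 0.39. Then 32 members were higher and 2 lower, among 72.5% and 7.95% of all genes. Quantile scaling gave 15 higher and 7 lower members, among 5062 higher and 4464 lower of the 15838 genes. Statements of higher or lower below therefore hold for the 75th percentile, that is, relative to the bulk of genes on the same array. Of the 22 members, 7 kept their direction and their call under all 17 alternative settings: *Atf6*, *Psph*, *Slc7a5*, *Slc7a1* and *Chac1* were higher, and *Atf5* and *Vldlr* were lower. Under spike-in scaling the other 10 members that were lower turned to values above 0, except *Edem1* at -0.03.

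**Figure D2:**
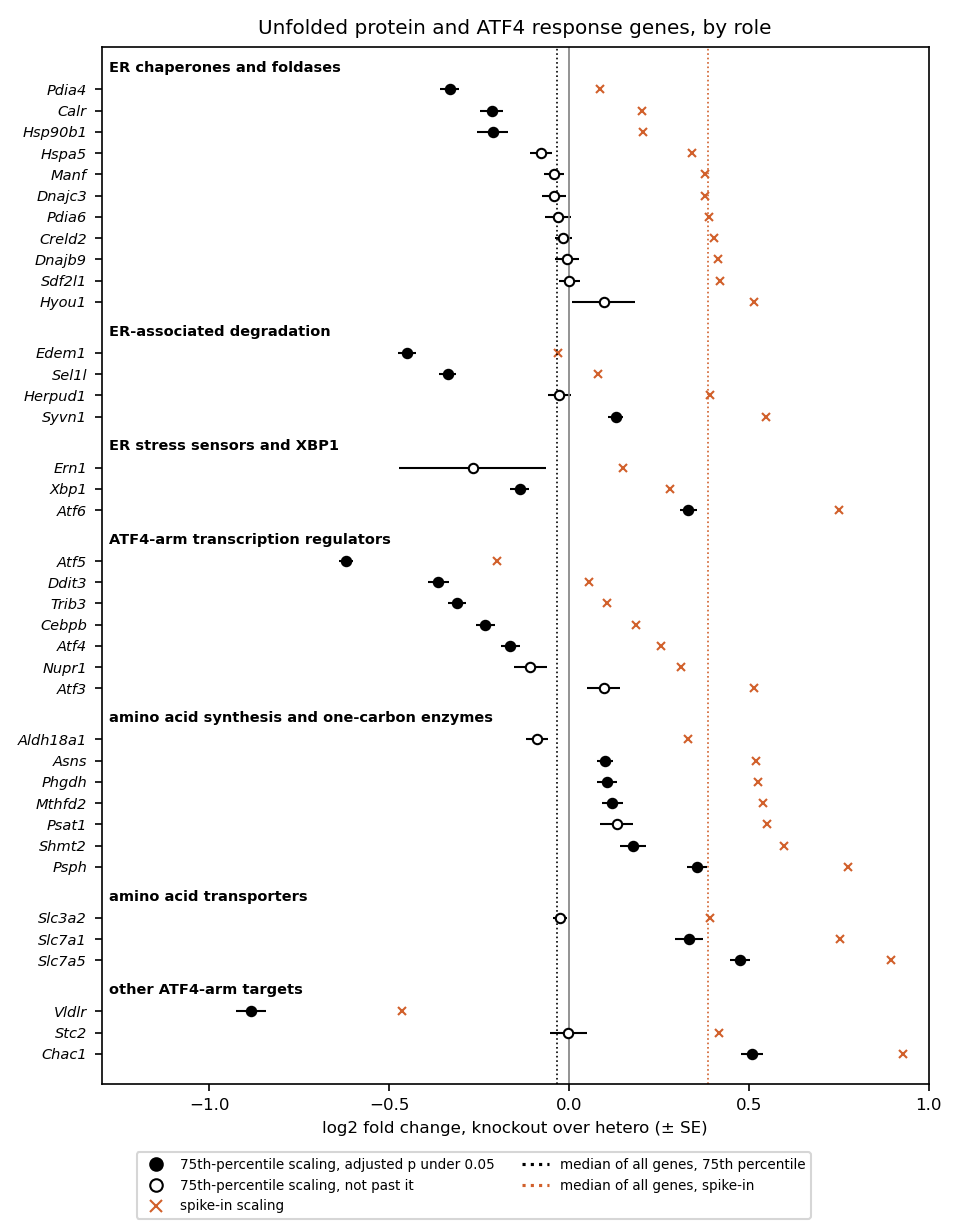
Log2 fold change, knockout over hetero, of the 38 members by role; circles with bars are the estimate and its SE under 75th-percentile scaling (filled where the adjusted p was under 0.05), crosses the value under spike-in scaling, and dotted lines the median of all genes under each. The crosses lie 0.419 to the right of the circles, and *Vldlr* and *Atf5* are the members that stay clearly below 0 under both.

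Most ER chaperones and foldases did not pass the test. Of the 11 tested, 3 were lower in knockout spheres, 0 were higher and 8 did not pass, and the median log2 fold change was -0.04, beside -0.03 over all genes. Among all genes, 27.8% were higher and 32.6% lower. Under spike-in scaling 10 of the 11 were higher and 0 lower, where 72.5% and 7.95% of all genes were. Under quantile scaling 3 were higher and 1 lower, among 5062 higher and 4464 lower of 15838 genes. The 3 lower genes were *Pdia4*, *Hsp90b1* and *Calr*, whose values became 0.09, 0.21 and 0.20 under spike-in scaling. *Hsp90b1* and *Calr* missed the threshold under quantile scaling (adjusted p = 0.643 and 0.296). *Hspa5*, which encodes BiP, the chief ER chaperone and the usual reporter of ER stress, read 7.08, 7.01 and 7.08 in hetero and 6.97, 6.95 and 7.01 in knockout spheres. Its highest knockout value just passed its lowest hetero value, so the groups overlapped slightly. The log2 fold change was -0.08 (95% interval -0.16 to 0.00, adjusted p = 0.0837). It passed as higher under quantile scaling (0.11, adjusted p = 0.0436) and spike-in scaling (0.34, adjusted p = 0.000461), and as lower without hetero replicate 2 (-0.10, adjusted p = 0.0493), so its direction is not settled.

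*Pdia4*, a protein disulfide isomerase, read 3.60, 3.63 and 3.58 in hetero and 3.26, 3.25 and 3.30 in knockout spheres. Every knockout value lay below every hetero value, by 1.26-fold on average (log2 fold change -0.33, SE 0.026, adjusted p = 0.000194). *Hsp90b1*, the ER form of HSP90 (GRP94), read 7.10, 6.99 and 7.01 in hetero and 6.80, 6.80 and 6.88 in knockout spheres. It was 1.16-fold lower without overlap (log2 fold change -0.21, SE 0.043, adjusted p = 0.00794). *Calr*, the calcium-binding lectin chaperone calreticulin, read 6.33, 6.39 and 6.38 against 6.20, 6.14 and 6.12. It too was 1.16-fold lower without overlap (log2 fold change -0.21, SE 0.032, adjusted p = 0.00244).

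The chaperone partners that follow ER stress most directly showed no difference past the test under 75th-percentile scaling. *Dnajc3*, a BiP co-chaperone that restrains PERK, had a log2 fold change of -0.04 with a 95% interval from -0.13 to 0.04. *Sdf2l1*, another BiP partner, stood at 0.00 (-0.07 to 0.08), *Creld2*, a foldase-related protein, at -0.02 (-0.08 to 0.05), and the secreted factor *Manf* at -0.04 (-0.11 to 0.03). For these 4 genes the intervals leave out a change of 0.15 on the log2 scale in either direction, under this scaling. Under spike-in scaling all 4 passed as higher, at 0.38, 0.42, 0.40 and 0.38 in the order given. *Creld2* also passed as higher under quantile scaling (0.08, adjusted p = 0.031). *Pdia6*, a second disulfide isomerase, stood at -0.03 with its brighter probe and at 0.12 with its other probe. *Dnajb9*, a BiP co-chaperone and IRE1alpha regulator, had discordant probes. Its brighter probe (hetero mean 2.44) gave -0.01 (adjusted p = 0.886). Its second, much dimmer probe (hetero mean -1.62) gave 0.42 (adjusted p over all probes 0.00112), so its level is unsettled. *Hyou1*, a nucleotide exchange factor for BiP, varied most between arrays among the chaperones and stood at 0.10 (-0.13 to 0.32).

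Among the 4 ERAD genes, 2 were lower, 1 was higher and 1 did not pass, where 32.6% of all genes were lower and 27.8% higher. *Edem1*, a mannosidase-like protein that selects misfolded glycoproteins, read 2.85, 2.89 and 2.89 in hetero and 2.41, 2.41 and 2.46 in knockout spheres. This 1.37-fold difference was the largest of the ER arm (log2 fold change -0.45, SE 0.026, adjusted p = 5.93e-05), and it became -0.03 under spike-in scaling. *Sel1l*, the adaptor that holds the ERAD ubiquitin ligase in place, read 2.45, 2.43 and 2.45 against 2.09, 2.14 and 2.09. It was 1.26-fold lower (log2 fold change -0.34, SE 0.024, adjusted p = 0.000132), and 0.08 under spike-in scaling. *Syvn1*, which encodes that ligase (HRD1), moved the other way, from 4.73, 4.73 and 4.76 to 4.88, 4.85 and 4.87. None of its values overlapped, and the log2 fold change was 0.13 (SE 0.022, adjusted p = 0.00407). *Herpud1*, a stress-induced ERAD scaffold, stood at -0.03 (95% interval -0.11 to 0.05).

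The ER stress sensors and *Xbp1* did not move together. *Atf6*, the sensor that is itself cleaved to a transcription factor, read 0.68, 0.66 and 0.69 in hetero and 1.033, 1.002 and 0.988 in knockout spheres. The groups were far apart relative to their spread, at 1.26-fold (log2 fold change 0.33, SE 0.023, adjusted p = 0.000122). *Xbp1*, whose probe is not assigned to the spliced or the unspliced mRNA here, read 5.999, 5.953 and 5.980 against 5.84, 5.81 and 5.87. It was 1.10-fold lower (log2 fold change -0.14, SE 0.026, adjusted p = 0.0065), but 0.02 under quantile and 0.28 under spike-in scaling. *Ern1*, which encodes IRE1alpha, read -0.24, 0.51 and -0.14 in hetero and -0.21, -0.22 and -0.24 in knockout spheres. One hetero array stood well above the other 5, the groups overlapped, and the log2 fold change of -0.27 (SE 0.205) did not pass the test. That array was hetero replicate 2, and without it the log2 fold change was -0.03. *Eif2ak3*, which encodes the sensor PERK and is not among the members, was lower (log2 fold change -0.11, SE 0.031, adjusted p = 0.0256). Under spike-in scaling it stood at 0.31.

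**Figure D3:**
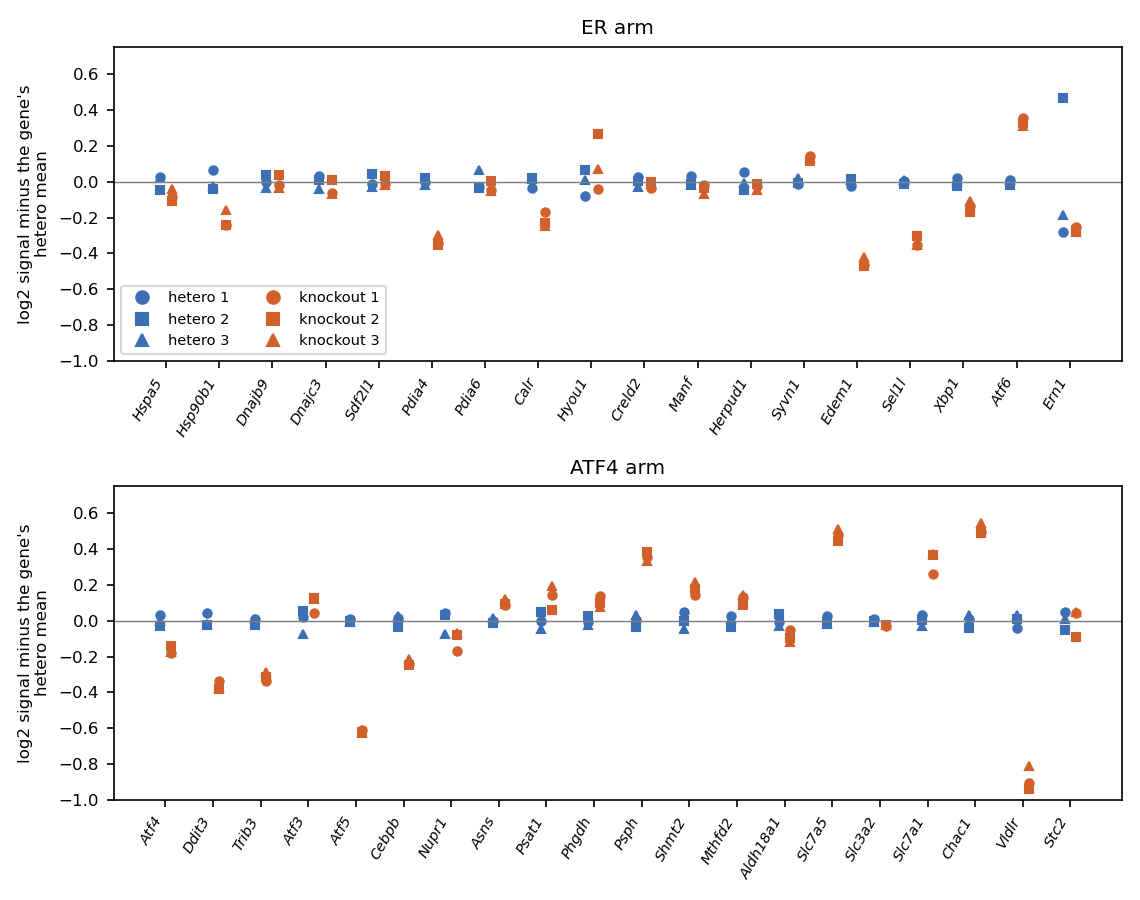
Signal of each member on each of the 6 arrays, as log2 signal minus the gene's mean over the 3 hetero arrays (75th-percentile scaling), for the ER arm and the ATF4 arm; colours mark genotype and shapes the replicate number. Most knockout points cluster tightly, *Ern1* is set apart by 1 hetero array, and regulators such as *Atf5* and *Ddit3* lie below 0 while *Slc7a5*, *Slc7a1* and *Chac1* lie above it; under spike-in scaling the knockout means sit 0.419 higher against the hetero means, which turns the log2 fold change of *Ddit3* to 0.06 and leaves that of *Atf5* at -0.20.

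In the ATF4 arm the median of the transcription regulators lay below, and that of the amino acid genes above, the median of all genes, with *Atf3* and *Aldh18a1* as exceptions on either side. Of the 7 regulators, 5 were lower in knockout spheres, 0 higher, and 2 did not pass, with a median log2 fold change of -0.23. Of the 10 amino acid enzymes and transporters tested, 7 were higher, 0 lower, and 3 did not pass, with a median of 0.13. Among all genes, 27.8% were higher and 32.6% lower. Under spike-in scaling the regulators' median became 0.19 (5 higher, 1 lower) and that of enzymes and transporters 0.55 (10 higher). The shares of all genes were then 72.5% higher and 7.95% lower. Quantile scaling left 3 regulators lower. Only 3 enzymes and transporters were higher under median scaling, and only 3 on the 4 arrays of slide row 1 alone. Their median was then 0.15 and 0.11. Fewer of all genes passed there too, 7088 and 7699 instead of 9563. The distance between the median of regulators and that of enzymes and transporters, 0.36, is untouched by a constant shift. It ran from 0.28 to 0.39 over the alternative settings. The lists were formed with earlier results of these data known, so this contrast is a description.

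*Atf4* itself read 7.67, 7.61 and 7.64 in hetero and 7.47, 7.50 and 7.47 in knockout spheres. It was 1.12-fold lower without overlap (log2 fold change -0.16, SE 0.026, adjusted p = 0.00337). Its second probe gave -0.05 (adjusted p over all probes 0.286), and the first gave 0.07 under quantile and 0.25 under spike-in scaling, so the direction of its mRNA is not settled.

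*Atf5*, an ATF4-related factor that is also under eIF2alpha control, changed most among the regulators. It read 7.91, 7.90 and 7.90 in hetero and 7.29, 7.28 and 7.28 in knockout spheres, with almost no spread inside either group. It was 1.54-fold lower (log2 fold change -0.62, SE 0.019, adjusted p = 6.44e-06), and still lower under spike-in scaling at -0.20.

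*Ddit3*, which encodes CHOP, a factor tied to cell death under lasting stress, read 3.02, 2.95 and 2.95 against 2.64, 2.59 and 2.60. It was 1.29-fold lower (log2 fold change -0.36, SE 0.030, adjusted p = 0.000229). *Trib3*, a pseudokinase induced by ATF4 and CHOP, read 4.23, 4.20 and 4.23 against 3.89, 3.91 and 3.94. It was 1.24-fold lower (log2 fold change -0.31, SE 0.025, adjusted p = 0.000203). *Cebpb*, a C/EBP partner of ATF4, read 6.13, 6.08 and 6.14 against 5.87, 5.87 and 5.90, and was 1.18-fold lower (log2 fold change -0.23, SE 0.027, adjusted p = 0.000862). None of these 3 genes had overlapping groups, and under spike-in scaling their values were 0.06, 0.11 and 0.19. *Atf3*, an early stress factor, stood at 0.10 (95% interval -0.02 to 0.21), and *Nupr1*, a small stress-induced chromatin protein, at -0.11 (-0.22 to 0.01).

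The enzymes of the serine and one-carbon route lay on the higher side. *Phgdh*, *Psat1* and *Psph* catalyse the successive steps from a glycolytic intermediate to serine. *Psph*, the phosphatase of the last step, read 2.34, 2.30 and 2.36 in hetero and 2.69, 2.72 and 2.67 in knockout spheres. It was 1.28-fold higher (log2 fold change 0.36, SE 0.027, adjusted p = 0.000186), with 0.43 from its second probe. *Phgdh*, the first step, read 3.74, 3.77 and 3.72 against 3.88, 3.84 and 3.82, a smaller difference without overlap (log2 fold change 0.11, SE 0.028, adjusted p = 0.0213). *Psat1*, the middle step, read 2.77, 2.82 and 2.72 against 2.91, 2.83 and 2.96. Its groups barely separated, and its log2 fold change of 0.13 missed the threshold (adjusted p = 0.0505). Its second probe, dimmer at a hetero mean of -1.13, gave 0.30 (adjusted p over all probes 0.00511).

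*Shmt2*, the mitochondrial enzyme that takes the one-carbon unit from serine, read 3.14, 3.08 and 3.04 against 3.23, 3.26 and 3.30 (log2 fold change 0.18, SE 0.036, adjusted p = 0.00795). *Mthfd2*, which acts next to it in the mitochondrial folate cycle, read 1.16, 1.10 and 1.15 against 1.27, 1.22 and 1.28 (log2 fold change 0.12, SE 0.029, adjusted p = 0.0148). *Asns*, asparagine synthetase and a standard ATF4 target, read 5.10, 5.09 and 5.12 against 5.19, 5.19 and 5.23 (log2 fold change 0.10, SE 0.022, adjusted p = 0.0119). In all 3 the knockout values lay above the hetero values, by 1.07-fold to 1.13-fold. These calls were not firm: *Asns*, *Shmt2*, *Mthfd2* and *Phgdh* all missed the threshold under median scaling (adjusted p = 0.157, 0.0808, 0.106 and 0.162) and on slide row 1 alone (0.0723, 0.0569, 0.0996 and 0.0839). There 1 of the 7 enzymes was higher instead of 5, and without knockout replicate 1 it was 3. Fewer of all genes passed in these fits too. *Phgdh* and *Mthfd2* were also lost in at least 1 of the 6 fits without a replicate. *Aldh18a1*, which starts proline synthesis, stood apart from the other enzymes at -0.09 (95% interval -0.17 to -0.01, adjusted p = 0.0526).

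Of the 3 transporters, 2 were higher, where 27.8% of all genes were. *Slc7a5*, the light chain of the large neutral amino acid carrier LAT1, read 2.24, 2.21 and 2.20 in hetero and 2.70, 2.66 and 2.73 in knockout spheres. It was 1.39-fold higher with its brighter probe (log2 fold change 0.48, SE 0.027, adjusted p = 6.01e-05). Its second probe was much dimmer (hetero mean -1.29, against 2.22 for the first), though above background on all arrays. It gave -0.04 (adjusted p over all probes 0.756), so the rise rests on 1 of 2 probes. *Slc7a1*, the cationic amino acid carrier CAT1, read 3.05, 3.02 and 2.99 against 3.28, 3.39 and 3.39, and was 1.26-fold higher (log2 fold change 0.33, SE 0.039, adjusted p = 0.000992). *Slc3a2*, the heavy chain that pairs with the LAT1 light chain, stood at -0.03 (95% interval -0.07 to 0.02).

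The remaining ATF4 targets held the extremes of the whole group. *Chac1*, an enzyme that breaks down glutathione, read 1.60, 1.56 and 1.63 against 2.09, 2.09 and 2.14. It had the largest rise of the 38 members under 75th-percentile scaling, at 1.42-fold (log2 fold change 0.51, SE 0.030, adjusted p = 6.36e-05). *Vldlr*, a lipoprotein receptor, read 4.86, 4.91 and 4.94 against 4.001, 3.967 and 4.092. It had the largest fall, at 1.84-fold (log2 fold change -0.88, SE 0.042, adjusted p = 2.75e-05). Its second probe gave -0.79, and spike-in scaling gave -0.46. *Stc2*, a secreted glycoprotein, stood at 0.00 on a 95% interval from -0.13 to 0.13.

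Compared as wholes, the arms differed little. In the ER arm 2 members were higher, 6 lower and 10 did not pass, with a median log2 fold change of -0.04. In the ATF4 arm 8 were higher, 6 lower and 6 did not pass, with a median of 0.05. Of all genes, 27.8% were higher and 32.6% lower. Under spike-in scaling the counts were 15 higher and 0 lower in the ER arm and 17 and 2 in the ATF4 arm. Of all genes, 72.5% and 7.95% were then higher and lower. Under quantile scaling the arm counts were 5 and 3 and 10 and 4, among 5062 higher and 4464 lower of 15838 genes. The ER median lay 0.09 below the ATF4 median. That distance kept its sign in every alternative run and lay between -0.118 and -0.055 when 1 array was left out, and at -0.052 on the arrays of slide row 1 alone. Against the median of all genes, the ER arm lay at -0.01 (-0.03 to 0.03 over the alternatives), that is, with the bulk. The ATF4 arm lay at 0.08 (0.03 to 0.11). That place rests on the median. The mean log2 signal of the ATF4 arm was 3.577, 3.557 and 3.551 in hetero and 3.535, 3.531 and 3.561 in knockout spheres. That of the ER arm was 3.536, 3.572 and 3.535 against 3.448, 3.470 and 3.453. The log2 of the mean linear signal was lower in knockout spheres for both arms. It was 5.04 to 5.06 against 5.30 to 5.32 (ATF4) and 5.06 to 5.09 against 5.16 to 5.20 (ER).

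Inside the ATF4 arm, regulators, synthesis enzymes and transporters each lay farther from the bulk than the arms lay from each other, under 75th-percentile scaling. Under quantile scaling this did not hold for the regulators. The other ATF4-arm targets lay near the bulk, at 0.03 (-0.005 to 0.08 over the alternatives). Regulators lay 0.20 below the median of all genes (0.09 to 0.22 below over the alternatives), synthesis enzymes 0.15 above (0.13 to 0.22) and transporters 0.37 above (0.25 to 0.43). Array by array, the mean of the 7 regulators in knockout spheres was -0.26, -0.24 and -0.23 from its hetero mean. For enzymes and transporters together it was 0.17, 0.16 and 0.18. The 3 knockout arrays thus gave nearly the same value for each of these 2 groups. They were less alike for the other ATF4-arm targets, at -0.12, -0.18 and -0.07. All 22 members that passed the test had the same sign on the arrays of both slide rows, but every slide column held 1 genotype, so column and genotype cannot be told apart.

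**Figure D4:**
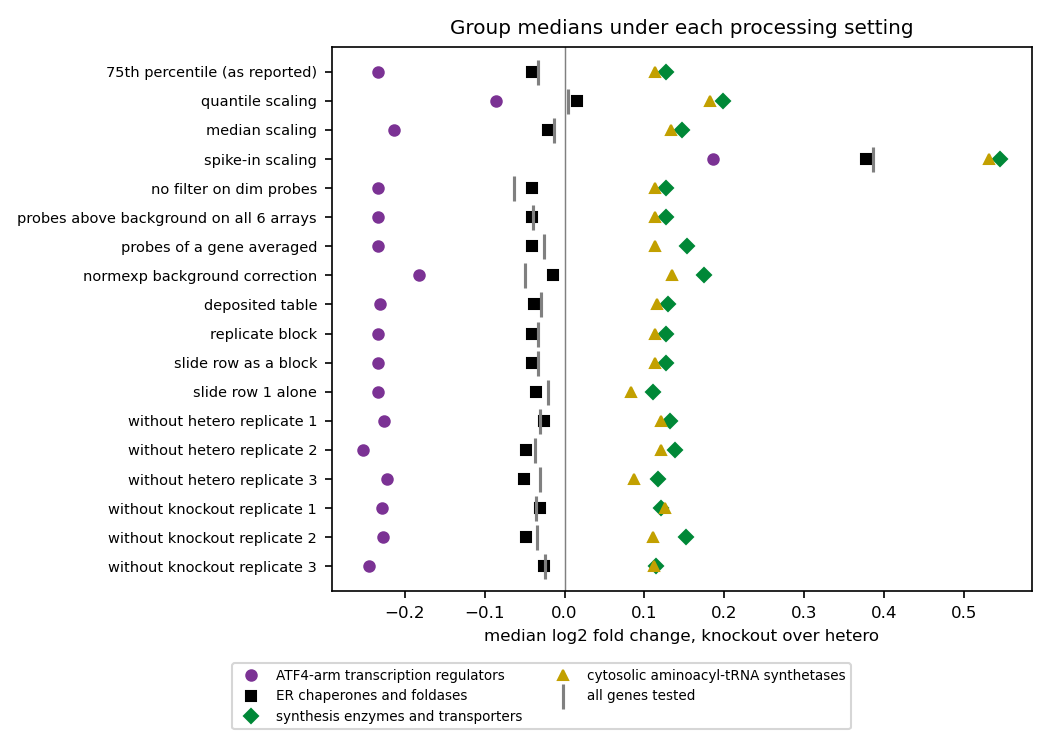
Median log2 fold change, knockout over hetero, of 4 gene groups and of all genes tested (grey ticks) under 75th-percentile scaling and each of 17 alternative settings. Under each setting the ATF4-arm regulators lie left of the tick of all genes, and the synthesis enzymes and transporters and the tRNA synthetases lie right of it; the regulators' median is below 0 except under spike-in scaling, where it is 0.19.

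Related pathway lists, chosen like the members with earlier results known, place these values in a wider set of genes. Of all genes tested, 27.8% were higher and 32.6% lower, or 72.5% and 7.95% under spike-in scaling. Cytosolic aminoacyl-tRNA synthetases, which charge tRNAs with amino acids and include known ATF4 targets, had 10 of 20 members higher, 2 lower and 8 not past the test (median 0.11). *Rars* (0.43), *Vars* (0.35) and *Cars* (0.24) rose most, and *Farsa* (-0.14) and *Kars* (-0.07) fell under this scaling. *Farsa* and *Kars* were at 0.28 and 0.35 under spike-in scaling, where all 20 were higher. The count of higher synthetases fell to 4 under median scaling, 5 on slide row 1 alone and 6 without knockout replicate 3. The count of all genes past the test fell there too, from 9563 to 7088, 7699 and 8575. The list lay 0.15 above the median of all genes (0.10 to 0.18 over the alternatives), and 5 of its 13 genes in the promoter table held a CARE.

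Other ATF4 amino acid and stress targets had 7 of 28 higher and 9 lower (median -0.06), near the shares of all genes (27.8% and 32.6%). *Cdsn* (1.74), *Slc7a3* (0.65), a cationic amino acid carrier like *Slc7a1*, and *Bcat1* (0.58), a branched-chain aminotransferase, rose most. *Cdsn* and *Slc7a3* were dim, and with normexp background correction their values were 0.997 and 0.39, *Slc7a3* then below *Bcat1* (0.56) and *Gdf15* (0.52). *Ndrg1* (-1.05), *Ddit4* (-0.48), an inhibitor of mTORC1, and *Jdp2* (-0.32) fell most. Under spike-in scaling 23 were higher and 1 lower. The list of eIF2alpha, its kinases, its phosphatase subunits and its exchange factor had 1 of 10 higher and 4 lower (median -0.00). *Eif2s1*, eIF2alpha itself, was higher (0.40). *Ppp1r15a* (-0.27), the stress-induced phosphatase subunit GADD34, and the kinase genes *Eif2ak2* (-0.20) and *Eif2ak4* (-0.14) fell most, while all 10 were higher under spike-in scaling.

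Further ER folding and degradation genes had 10 of 31 higher and 11 lower, around a median of -0.00. This too was near the shares of all genes (27.8% and 32.6%). *Derl3* (1.22), an ERAD channel component, *Creb3l2* (0.44) and *Ube2j1* (0.26) rose most, and *Derl3*, also dim, stood at 0.72 with normexp. *Creb3l1* (-0.63), *Os9* (-0.55) and *Ero1a* (-0.53), the oxidase that supplies disulfide bonds, fell most. Spike-in scaling gave 24 higher and 2 lower. Genes of ER translocation and the secretory pathway had 5 of 26 higher and 10 lower (median -0.03), with *Sec11c* (0.44), *Sec63* (0.37) and *Sec23b* (0.16) on the upper end and *Ddost* (-0.50), *Rpn2* (-0.29) and *Sec24d* (-0.27) on the lower. Under spike-in scaling 25 were higher and 1 lower.

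**Figure D5:**
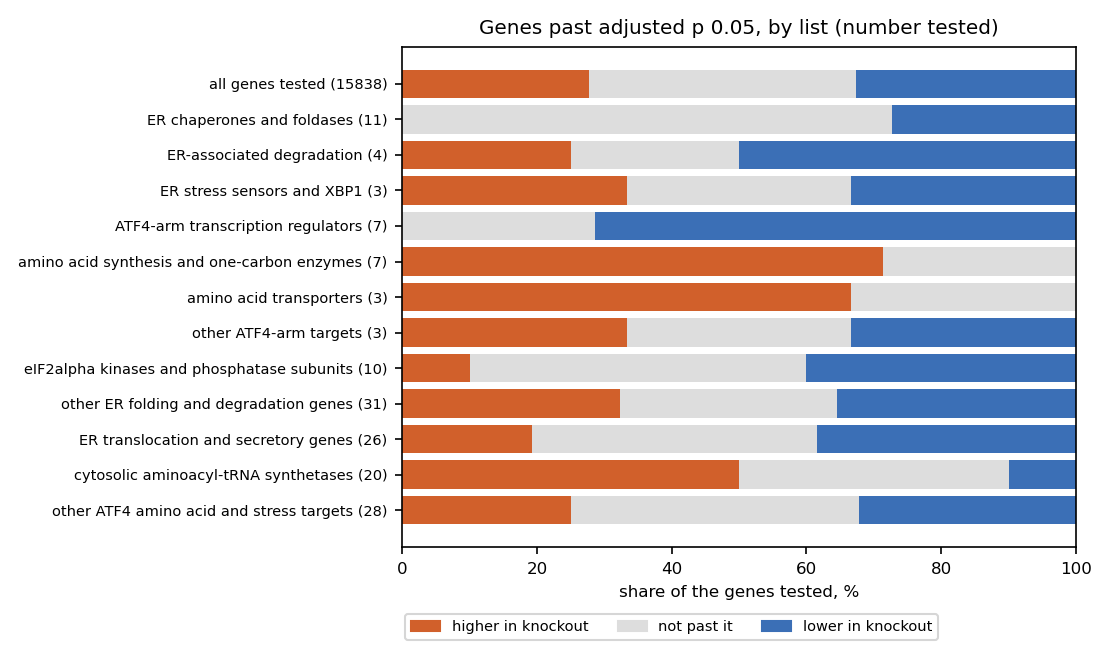
Share of the genes tested in each list, in percent, that were higher (orange) or lower (blue) in knockout spheres at an adjusted p under 0.05, or did not pass (grey), with the number tested in brackets, under 75th-percentile scaling. The top bar is the background of all 15838 genes (27.8% higher, 32.6% lower); under spike-in scaling that background becomes 72.5% higher and 7.95% lower, and the lists shift with it.

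Members with and without a promoter element had overlapping values. The 7 ER genes with an ERSE had a median log2 fold change of -0.04 (1 higher, 2 lower, 4 not past the test). The 8 without one in their window had -0.20 (0 higher, 4 lower, 4 not past). The shares of all genes were 27.8% higher and 32.6% lower. Only the first form was counted here, so *Herpud1* with its ERSE-II is among these 8. The ranges ran from -0.21 to 0.13 with the element and from -0.45 to 0.00 without. The 6 tested ATF4 genes with a CARE ranged from -0.88 in *Vldlr* to 0.51 in *Chac1*, whose windows are printed above and share the same 8 letters on the same strand. The median of these 6 was -0.01, and that of the 13 without a CARE was -0.00.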

How the data were processed

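Cy3-labelled total RNA of 6 samples was measured on single-colour Agilent arrays. Per the submitters' processing notes, scans were read out in Agilent Feature Extraction 10.7.3.1. The deposited scanner files hold spot intensity on a linear scale, with background already subtracted in the processed signal, per the file headers, which name assembly mm9. The authors' deposited table of intensities holds this processed signal of 46598 probes divided by a constant for each array (402 to 484), within 1% for 100% of probes spotted once.

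Control spots (3671 of 62976) and 102 to 129 outlier spots per array were left out, and none was saturated. The log2 processed signal was scaled by each array's 75th percentile, and spots of a probe were averaged. Probes well above background on at least 3 of 6 arrays were kept, and the brightest kept probe stood for its gene. Symbols came from RefSeq accessions (GRCm38.p6, 27220 of 55654 probes). The genotype effect was fitted in R 4.3.3 with limma 3.58.1 (lmFit, then eBayes), with Benjamini-Hochberg adjustment over 15838 genes, and the fit was tested on simulated data. The number of arrays, 3 per genotype, limits the precision. Same-numbered replicates did not deviate together (residual correlations -0.115, -0.018 and -0.0056), so the numbers were not taken as pairs. Alternatives covered scaling, the filter, background correction, the probe used, the source of values, blocks and single arrays left out. Normexp used the median spot signal, because the mean signal is not among the columns used here.

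Members and gene lists were chosen with earlier results of these data known. All members were named by rule. From each pathway list up to 3 genes with the largest rise and 3 with the largest fall among those past the test were named, and from each marker list up to 3 with the highest mean signal. *Cd68*, *Elf3*, *Jchain*, *Mzb1*, *Tnfrsf17*, *Gdf15* and *Eif2ak3* were named beyond this rule, after their values were seen. Mean signals of marker lists are the log2 of the mean linear signal.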

Additional observations from a re-analysis of the deposited data

How the results depend on the processing

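Scaling decided most directions. Spike-in scaling gave 32 members higher and 2 lower, with arm medians of 0.38 (ER) and 0.47 (ATF4). It turned these members positive: *Aldh18a1* 0.33, *Atf4* 0.25, *Calr* 0.20, *Cebpb* 0.19, *Creld2* 0.40, *Ddit3* 0.055, *Dnajb9* 0.41, *Dnajc3* 0.38, *Ern1* 0.15, *Herpud1* 0.39, *Hsp90b1* 0.21, *Hspa5* 0.34, *Manf* 0.38, *Nupr1* 0.31, *Pdia4* 0.087, *Pdia6* 0.39, *Sel1l* 0.081, *Slc3a2* 0.39, *Stc2* 0.42, *Trib3* 0.11 and *Xbp1* 0.28. Quantile scaling gave 7 members lower, arm medians of 0.017 (ER) and 0.11 (ATF4), and *Atf4* 0.073, *Creld2* 0.079, *Hspa5* 0.11, *Pdia6* 0.14, *Slc3a2* 0.12 and *Xbp1* 0.022. Median scaling gave 5 members higher and an ER median of -0.021, and normexp an ER median of -0.018. Slide row 1 alone, with fewer arrays, gave 6 members higher and an arm difference of -0.052. Averaging a gene's probes gave *Dnajb9* 0.21. The cause of the scaling shift was not tested.

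Without 1 replicate at a time, 8 to 10 members were higher and 12 to 13 lower, 8564 to 8952 genes passed, and the arm medians ran from -0.06 to -0.03 (ER) and from 0.03 to 0.06 (ATF4), with a difference from -0.12 to -0.06. With the replicate number as a block, 8511 genes passed, 9 members were higher and 12 lower, and among the members past the test only *Phgdh* was lost (adjusted p = 0.0547). Of the 22 members past the test, 18 held under every alternative other than those of scaling between arrays, and 20 in every fit without a replicate. Probe signal near background limits *Frs3*, whereas the members were all well above background. Values of dim members still moved with background correction. *Hyou1* (hetero mean -1.89) and *Atf3* (-0.95) went from 0.097 and 0.096 to 0.047 and 0.056 with normexp.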
